A study of Mus musculus with 26 samples.

Results

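The comparison described here is that of XY gonads carrying the Fgf9 Δ225 deletion with wild type (WT) XY gonads, all taken from mouse embryos at embryonic stage E13.5. Its members are the 6 libraries labelled Δ225 and the 3 libraries labelled WT in the table that holds all deletions of the series, 9 of 26 samples in all. They were chosen by label only. The other samples of the series carry the deletions named Δ306, Δ104 and Δ93 or a Meis1 knockout. Bulk RNA-seq read counts per gene were available for each library. The labels give no strain, zygosity or deletion boundaries, and no allele besides the deletion. They call the Δ225 samples biological replicates and the WT samples replicates, without naming animals or litters. The edgeR p-values measure the spread between libraries within groups, pooled over all 22 libraries of WT and the 4 Fgf9 deletions. That spread may be partly technical. Replicates 1 to 3 of Δ225 have smaller libraries than replicates 4 to 6, and the 2 sets of 3 were therefore also compared with WT apart.

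FGF9 is a secreted fibroblast growth factor that signals mainly through FGFR2 in the fetal testis. In XY gonads it is made by supporting cells, where it helps to maintain SOX9 and Sertoli cell fate, represses the ovarian WNT4 programme, and acts on male germ cells to delay meiosis and sustain pluripotency genes. XY mouse gonads that lack it can develop as ovaries. FGF receptors signal through the RAS-ERK cascade, which induces ETV transcription factors and the feedback inhibitors of the Sprouty, SPRED and DUSP families.

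The libraries differed in size and in content. Totals were 38.3 to 53.4 M counts in WT, 11.6 to 23.3 M in Δ225 replicates 1 to 3 and 41.3 to 46.8 M in replicates 4 to 6. Protein-coding genes of the highest GC quintile had a median log2 level of -1.525 to -0.599 relative to the WT mean in replicates 1 to 3, and of -0.059 to -0.018 in replicates 4 to 6. Mitochondrially encoded genes took 11.6% of the counts in replicate 1, 2.56 to 5.47% in the other 5 Δ225 libraries and 0.831 to 1.79% in WT. Replicate 3 held skeletal muscle and kidney or mesonephric transcripts at far higher levels than replicates 1, 2, 4, 5 and 6: Acta1, skeletal muscle actin, was at 357 CPM (counts scaled to library size) against 0.878 to 4.21, and Cdh16, a kidney cadherin, at 26.3 against 0.174 to 0.415. Those transcripts were also present in WT, at 0.291 to 7.65 and 0.0971 to 13.4 CPM. WT replicate 1 was low in germ cell genes: Dazl was at 4.29 CPM there against 188 and 284 in the other 2 WT libraries. The library labelled Δ225 replicate 4 was near 0 for the 5 Y-linked genes tested, of 6 examined. Their summed level was 0.1986 CPM there against 8.126 to 21.44 in the other Δ225 libraries and 31.58 to 77.84 in WT. Such low levels were also seen in the other deletions. The lowest value of Y-linked Uty was 0 CPM in Δ104 and Δ93 and 0.106 in Δ306, against 14.4 in WT. The testis markers Sox9, Amh and Dmrt1 were nevertheless present in all 9 libraries. Levels here are CPM scaled by edgeR's TMM factors. Differences are log2 fold changes with standard errors (SE) from edgeR's quasi-likelihood test, and a gene is called where its Benjamini-Hochberg adjusted p is below 0.05.

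**Figure D1:**
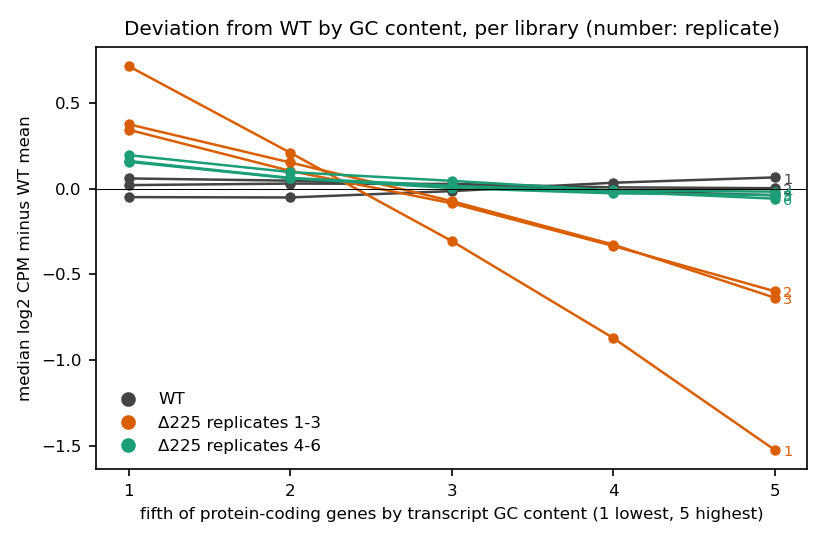
Median log2 CPM of protein-coding genes minus the WT mean (y axis, log2 units) in each GC quintile (x axis, lowest to highest), 1 line per WT and Δ225 library. Δ225 replicates 1 to 3 reach -0.599 to -1.525 in the highest quintile, while replicates 4 to 6 end between -0.018 and -0.059.

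The deletion is named for Fgf9, at chromosome 14, 58070547 to 58112720 on the plus strand of GRCm38. Fgf9 was at 9.85, 9.21 and 9.55 CPM in WT, at 5.66, 5.21 and 16.5 CPM in Δ225 replicates 1 to 3, and at 6.36, 4.69 and 3.69 CPM in replicates 4 to 6. Replicate 3 lay above all WT libraries, and the other 5 Δ225 libraries lay below all of them. Over all 6, the log2 difference was -0.44 (SE 0.37, edgeR adjusted p = 0.535), and an exact permutation test of log2 CPM, two-sided, gave p = 0.19 (84 assignments, smallest possible 0.0119). Leaving out replicate 3 gave -0.89 with an edgeR adjusted p of 0.143. In replicates 4 to 6 alone, which did not overlap WT, the difference was -0.96 (edgeR adjusted p = 0.467), with an exact permutation p of 0.1, the smallest that 3 against 3 can give. In replicates 1 to 3 the groups overlapped and the difference was -0.06 (edgeR adjusted p = 0.931). A lower Fgf9 level in Δ225 therefore did not pass either test.

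The nearest tested gene past the 3′ end of Fgf9 was listed at 0 counts in all 6 Δ225 libraries. Gm33321, a long intergenic RNA of unknown role at chromosome 14, 58300973 to 58363816 on the plus strand, starts 188.3 kb beyond the end of Fgf9. Its 3-exon transcript of 472 bases opens with the exon shown here, because reads of this gene separate the 2 genotypes without exception. The sequence is chr14:58300973-58301136, plus strand, from GENCODE M21 on GRCm38, with CpG dinucleotides in capitals.
Gm33321 first exon: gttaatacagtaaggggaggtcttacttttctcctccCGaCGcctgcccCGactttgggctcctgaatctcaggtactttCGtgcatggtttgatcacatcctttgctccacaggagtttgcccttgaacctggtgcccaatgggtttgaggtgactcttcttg
The first 164 bases hold 4 CpG, and 46.6% of 49247 genes have as many in theirs. WT held 25, 13 and 17 counts of Gm33321, or 0.628, 0.2525 and 0.448 CPM. Set against a floor of 3 counts over the 6 Δ225 libraries (0.0164 CPM), the WT mean of 0.443 CPM was 27-fold higher. That ratio leaves out the spread of the WT libraries. The sources used here give no boundaries of the deletion, so deleted DNA and lower expression cannot be told apart for this gene. It was called over all 6 (edgeR adjusted p = 0.000588), in replicates 1 to 3 (0.00134) and in replicates 4 to 6 (0.00142), and in each of the 17 alternative fits that tested it over all 6 (adjusted p 4.39e-07 to 0.0214). The fits of the 9 WT and Δ225 libraries alone left it out for its low counts, and it entered the test through the counts of the other deletions. The 13 libraries of the Δ306, Δ104 and Δ93 deletions, which share the WT controls but not the Δ225 allele, held 8 to 70 counts each. The level in WT is itself low, and a count of 0 covers counting error only.

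Around Fgf9, 46 further protein-coding genes with a start within 2 Mb were examined and 30 had enough counts to be tested; 22 of the 30 had a positive and 8 a negative log2 difference over all 6 replicates, with a median of 0.26 against 0.04 over all 22941 genes. None was called, where 0.209% of all genes were. Micu2, which lies between Zdhhc20 and Fgf9 and encodes a regulator of mitochondrial calcium uptake, was at 77.3, 80.3 and 86.9 CPM in WT, and its Δ225 values ran from 70.2 through a median of 81.5 to 84.8. The groups overlapped and the log2 difference was -0.04. In replicates 1 to 3 alone, where 23.9% of all genes were called, 8 of the 30 were. Of those 8, Cab39l, Ift88, Xpo4, Zdhhc20, Zmym2 and Zmym5 rose, by 0.65 to 0.95 on the log2 scale, and Cryl1 and Shisa2 fell. Only 1 gene of the 30 was called with GC and length in the fit, and the sign for Zdhhc20, a palmitoyltransferase, turned (-0.10). None of these 8 was called in replicates 4 to 6.

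**Figure D2:**
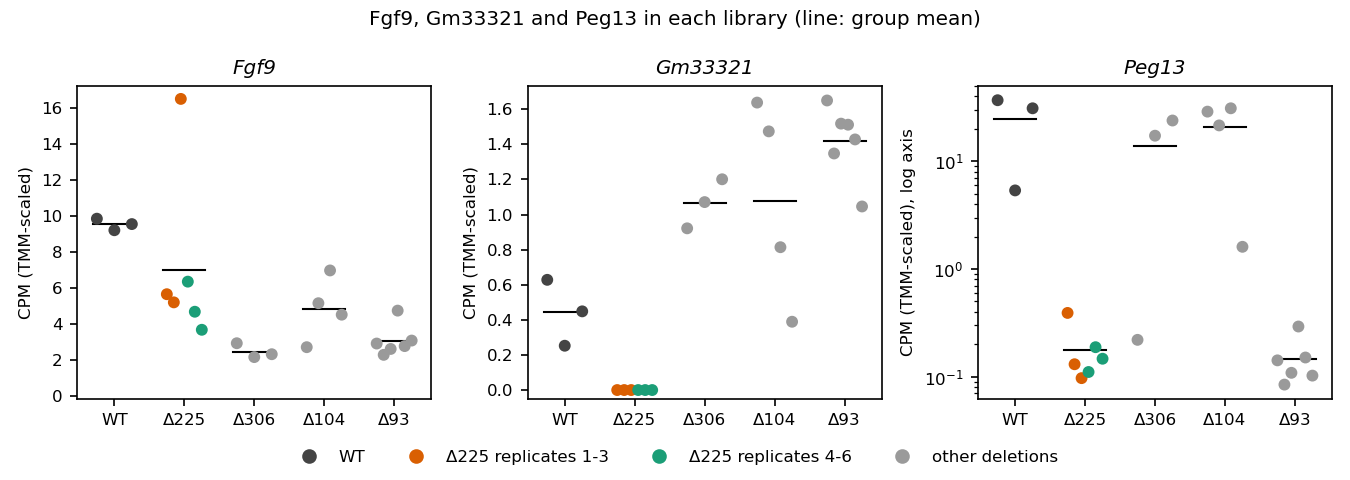
CPM of Fgf9, Gm33321 and Peg13 in each of the 22 libraries of WT, Δ225, Δ306, Δ104 and Δ93, 1 point per library (Peg13 on a log axis). Gm33321 is at 0 in the 6 Δ225 libraries alone, Fgf9 is above WT in 1 Δ225 library and below it in 5, and Peg13 is below 0.4 in every Δ225 library.

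Over all 6 replicates, the largest called difference outside chromosome 14 was a lower level of Peg13, an imprinted non-coding RNA expressed from the paternal copy inside an intron of Trappc9, at chromosome 15, 72805600 to 72810324 on the minus strand. Its start is printed as the point where its single exon begins; the sequence is chr15:72810161-72810324, minus strand, GENCODE M21 on GRCm38, CpG in capitals.
Peg13 start: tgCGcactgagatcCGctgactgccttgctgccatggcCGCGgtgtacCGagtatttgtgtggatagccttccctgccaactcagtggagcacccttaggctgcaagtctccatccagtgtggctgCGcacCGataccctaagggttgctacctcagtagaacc
These 164 bases hold 7 CpG, a number reached by 30.8% of 49247 genes. Peg13 was at 36.9, 5.36 and 31.1 CPM in WT. In Δ225 replicates 1 to 6 it was at 0.390, 0.130, 0.0967, 0.110, 0.188 and 0.146 CPM. The groups did not overlap, although WT replicate 2 was well below the other 2 WT libraries. Peg13 fell by 7.24 on the log2 scale over all 6 (SE 0.95, edgeR adjusted p = 0.00129), and remained called under all 18 alternatives that tested it. Peg13 was also at 0.146 ± 0.0754 CPM (SD, n = 6) in Δ93, against 13.8 ± 12.2 (n = 3) in Δ306 and 20.8 ± 13.4 (n = 4) for Δ104. The low level was therefore also seen in all 6 Δ93 libraries and in Δ306 replicate 1 (0.219 CPM), and Δ104 replicate 4 was at 1.605 CPM, below every WT library. Trappc9, the host gene, which encodes a subunit of a vesicle-tethering complex, was at 54.0, 64.1 and 55.8 CPM in WT and at 15.2 to 69.6 CPM in Δ225, with overlapping groups (-0.23, edgeR adjusted p = 0.694). It fell by 0.84 in replicates 1 to 3. Peg13 is annotated on the same strand as Trappc9, so strand does not separate its reads from those of the surrounding intron. Of 49 imprinted genes tested, Peg13 was the only one called over all 6 replicates. The median of the list was 0.17.

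Over all 6 replicates, 48 of 22941 genes were called, 30 higher (0.131%) and 18 lower (0.0785%) in Δ225, or 0.209% of those tested. At an unadjusted p below 0.05 there were 3687 (16.1%). Groups did not overlap for 10.1% of all genes, 5.22% higher and 4.9% lower in Δ225. By class, 17 protein-coding genes rose and 4 fell of 16252, 6 pseudogenes rose and 11 fell of 2539, 6 of 19 mitochondrially encoded genes rose, and Gm33321 and Peg13 were the called genes among 3364 other non-coding ones. Of 767 rows absent from GENCODE M21, 1 rose and 1 fell. Among the protein-coding genes, those that rose were mostly of low GC content: 15 of the 17 higher ones lay in the lowest GC quintile, and 2 of the 4 lower ones in the highest. In the lowest quintile, the median log2 level relative to the WT mean was 0.343 to 0.714 in replicates 1 to 3. It was 0.156 to 0.195 in replicates 4 to 6 and -0.05 to 0.059 in the WT libraries. This GC difference, larger in replicates 1 to 3, moves with these calls, and its part in them was not tested. With GC and length taken into the fit, 14 of the 48 remained called. Among these 14, Gm55094 and Zfp33b, the called rows absent from GENCODE M21, had no GC or length value. That fit did not adjust them, so it says nothing about GC or length for either.

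Mob1b, an activator of the LATS kinases of the Hippo pathway, rose the most among named protein-coding genes whose groups did not overlap. It was at 25.02, 26.4 and 22.8 CPM in WT, at 66.5, 51.0 and 63.3 in Δ225 replicates 1 to 3, and at 43.3, 39.2 and 43.8 in replicates 4 to 6. All 6 Δ225 libraries lay above all WT libraries, and replicates 1 to 3 above 4 to 6. The log2 difference was 1.05 (SE 0.17, edgeR adjusted p = 0.0099), or 2.07-fold. It was also called in replicates 1 to 3 (1.28) and 4 to 6 (0.77, adjusted p = 0.0177). Adding GC and length to the fit gave 0.41 (adjusted p = 0.25).

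Slc5a3, a sodium-coupled importer of the osmolyte myo-inositol, followed the same order. WT libraries were at 26.1, 24.4 and 18.5 CPM, replicates 1 to 3 at 48.0, 54.8 and 46.0, and replicates 4 to 6 at 39.8, 40.7 and 38.2. The groups did not overlap, and the log2 difference was 0.95 (SE 0.16, edgeR adjusted p = 0.0135). It was called in both sets (1.11 and 0.78). The value with GC and length in the fit was 0.57 (adjusted p = 0.25). Celf2, an RNA-binding regulator of splicing, rose by 0.94 from 36.6 to 47.8 CPM in WT to 65.8 to 89.8 in Δ225, and Gtf2a1, a subunit of the general transcription factor TFIIA, by 1.02. With GC and length in the fit these values were 0.55 and 0.63 (adjusted p = 0.352 and 0.0647). Neither was called in replicates 4 to 6 alone (adjusted p = 0.0508 and 0.127).

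Dpysl2, a collapsin response mediator that binds tubulin, had Δ225 values that overlapped between the 2 sets. It was at 43.0, 38.3 and 38.4 CPM in WT, at 54.7, 61.6 and 69.0 in replicates 1 to 3, and at 69.3, 59.8 and 66.1 in replicates 4 to 6. No Δ225 library reached down to WT. The log2 difference was 0.67 (SE 0.13, edgeR adjusted p = 0.0367) over all 6, 0.63 in replicates 1 to 3 and 0.71 in replicates 4 to 6. Between the 2 sets it differed by 0.07 (SE 0.15), and with GC and length in the fit it stayed called over all 6 (0.65, adjusted p = 0.0285). Tmem168, a membrane protein, likewise rose by 0.58, 0.60 and 0.56 in the same 3 comparisons, and was called in each, though not with GC and length in the fit (0.28 over all 6, adjusted p = 0.416). The zinc finger genes Zfp597 and Zfp770, and Tmem170b, Fam126b, Klhl15 and Styx rose over all 6 by 0.70 to 1.00. None of these 6 was called with GC and length in the fit, where Styx was at 0.08, Fam126b at 0.22, Klhl15 at 0.25, Tmem170b at 0.50, Zfp770 at 0.52 and Zfp597 at 0.67. Klhl15 encodes a substrate adaptor of a cullin ubiquitin ligase, and Styx a catalytically inactive phosphatase. Fam126b was the one of these 6 also called in replicates 4 to 6 (0.67, adjusted p = 0.0446).

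Scd1, which makes monounsaturated fatty acids, had the largest called increase of a nuclear protein-coding gene, 1.76 (SE 0.36, edgeR adjusted p = 0.0447). It was at 14.9, 7.46 and 13.2 CPM in WT, at 50.7, 44.2 and 12.9 in replicates 1 to 3, and at 25.9, 46.4 and 61.0 in replicates 4 to 6. Replicate 3 lay within WT, so the groups overlapped, and the other 5 lay above it. In replicates 4 to 6 alone, Scd1 rose by 1.90 (edgeR adjusted p = 0.0277). Over all 6 with GC and length in the fit it was at 1.69 (adjusted p = 0.0591).

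Gadd45g, a stress-response gene that is needed for timely Sry expression in the earlier XY gonad, fell. Its levels were 51.9, 46.5 and 34.2 CPM in WT, 10.2, 11.3 and 16.8 in replicates 1 to 3, and 25.4, 21.8 and 19.9 in replicates 4 to 6. The 3 groups of libraries did not overlap one another. The log2 difference was -1.32 (SE 0.25, edgeR adjusted p = 0.0325) over all 6, -1.79 in replicates 1 to 3 and -0.98 in replicates 4 to 6, the last of which was not called (adjusted p = 0.083). It was -0.78 (adjusted p = 0.16) with GC and length in the fit. Depp1, a FOXO-responsive gene linked to autophagy, fell by 1.39, from 6.65 to 10.5 CPM in WT to 1.95 to 4.4 in Δ225, and was at -1.07 (adjusted p = 0.118) with GC and length in the fit. Ppp1r9b, which encodes spinophilin, a scaffold for protein phosphatase 1, fell by 0.81, and that value was -0.06 with GC and length in the fit. Over all 6 replicates, none of Mob1b, Gtf2a1, Zfp597, Slc5a3, Celf2, Zfp770, Tmem170b, Fam126b, Klhl15, Styx, Depp1, Gadd45g and Ppp1r9b was called in a fit of the 9 libraries alone (edgeR adjusted p = 0.427 for each), in which Peg13 was the only call, and none of the 13 without WT replicate 2 or without WT replicate 3.

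**Figure D3:**
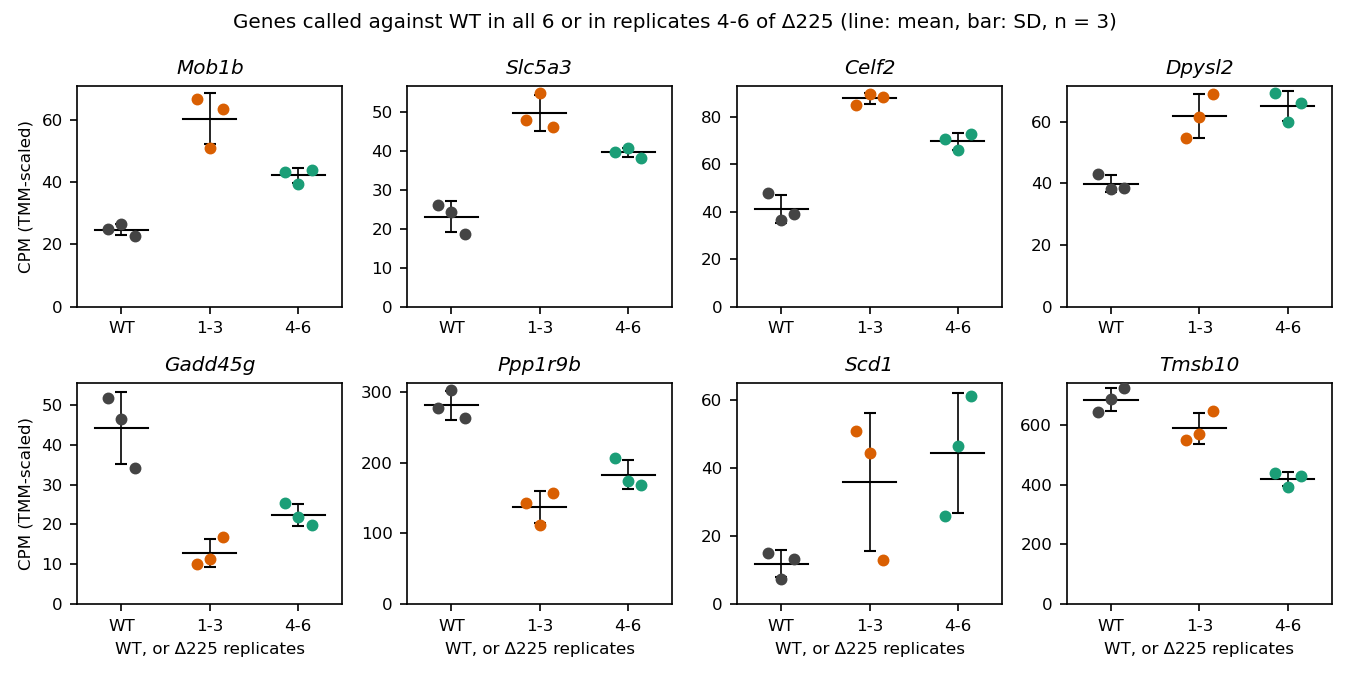
CPM of 8 genes called over all 6 or in replicates 4 to 6, in WT, Δ225 replicates 1 to 3 and Δ225 replicates 4 to 6 (points are libraries, lines are means, bars are SD, n = 3). Mob1b and Slc5a3 are above WT in both sets, Gadd45g is below it in both, and Dpysl2 is at like levels in both sets.

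Among FGF ligands and receptors, 12 of 13 genes were tested and none was called over all 6 replicates. Among the 12, 4 had positive and 8 negative differences, with a median of -0.21. Fgf2, a broadly acting ligand, was at 23.1, 25.4 and 24.1 CPM in WT, at 52.8, 46.9 and 30.4 in replicates 1 to 3, and at 39.1, 37.2 and 36.9 in replicates 4 to 6. All Δ225 libraries lay above WT. Over all 6 the difference was 0.74 (SE 0.20), which was not called (edgeR adjusted p = 0.117). Fgf2 rose in replicates 1 to 3 (0.84, edgeR adjusted p = 0.0119), a call lost with GC and length in the fit (0.40), and in replicates 4 to 6 the difference was 0.64 (adjusted p = 0.292). Fgfr2, the receptor through which FGF9 acts in supporting cells, was at 74.1 to 101 CPM in WT and ran from 64.0 to 97.0 in Δ225, with overlapping groups and a difference of 0.00 (SE 0.23). Fgfr1 and Fgfr3 fell in replicates 1 to 3, by 0.69 and 0.96. Fgfr1 was at 157 to 167 CPM in WT, 74.7 to 132 in replicates 1 to 3 and 128 to 133 in replicates 4 to 6, and the difference in replicates 1 to 3 became 0.01 with GC and length in the fit.

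The 14 FGF-ERK feedback and target genes gave no call over all 6 replicates or in replicates 4 to 6. Of the 14, 9 had negative differences over all 6, with a median of -0.19. Dusp6, a phosphatase that inactivates ERK, was at 61.2, 73.9 and 71.6 CPM in WT and 46.4 to 74.8 in Δ225, and the groups overlapped. Etv5, an ETS factor downstream of FGF, ranged from 78.3 to 174 in WT and from 78.2 to 165 in Δ225. Etv4 had the largest negative difference, -0.85 (SE 0.45, edgeR adjusted p = 0.35), with 12.6 to 38.9 CPM in WT against 6.05 to 24.2. Ccnd1, the G1 cyclin, was at 46.1, 56.2 and 50.5 CPM in WT and 19.2 to 46.5 in Δ225 (-0.71, SE 0.29, adjusted p = 0.264). Spred1, a negative regulator of RAS signalling, was the one member called in any set, with a rise of 0.54 in replicates 1 to 3 (adjusted p = 0.0101).

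Of 17 Sertoli cell genes none was called over all 6 replicates or in replicates 4 to 6. Of the 17, 5 had positive and 12 negative differences, with a median of -0.21 against 0.04 over all genes. Sox9, the transcription factor that specifies Sertoli cells, was at 98.7, 100.9 and 104.3 CPM in WT, at 128, 75.7 and 92.5 in replicates 1 to 3, and at 116, 92.9 and 76.4 in replicates 4 to 6. The Δ225 libraries lay on both sides of WT, with a difference of -0.06 (SE 0.62). Amh, the hormone by which Sertoli cells remove the Müllerian ducts, separated the 2 sets: it was at 1263 to 1685 CPM in WT, at 58.7, 405 and 311 in replicates 1 to 3, and at 1352, 1440 and 1110 in replicates 4 to 6. The difference between sets, 2.33 (SE 1.74), was not called (adjusted p = 0.366). Dmrt1, which keeps Sertoli cells from turning to granulosa fate, was at 31.2 to 75.0 CPM in WT and 32.7 to 69.5 in Δ225. Inhbb, a subunit of inhibins and activins, fell by 1.28 in replicates 1 to 3 (92.0, 119 and 106 CPM against 222 to 287 in WT) and was at 260, 237 and 214 in replicates 4 to 6. That call was lost with GC and length in the fit (edgeR adjusted p = 0.998). The list's summed level was 3074 to 3489 CPM in WT, 966.6 to 1395 in replicates 1 to 3 and 2555 to 3112 in replicates 4 to 6. These are bulk samples, in which fewer cells of a type and less RNA per cell cannot be told apart.

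**Figure D4:**
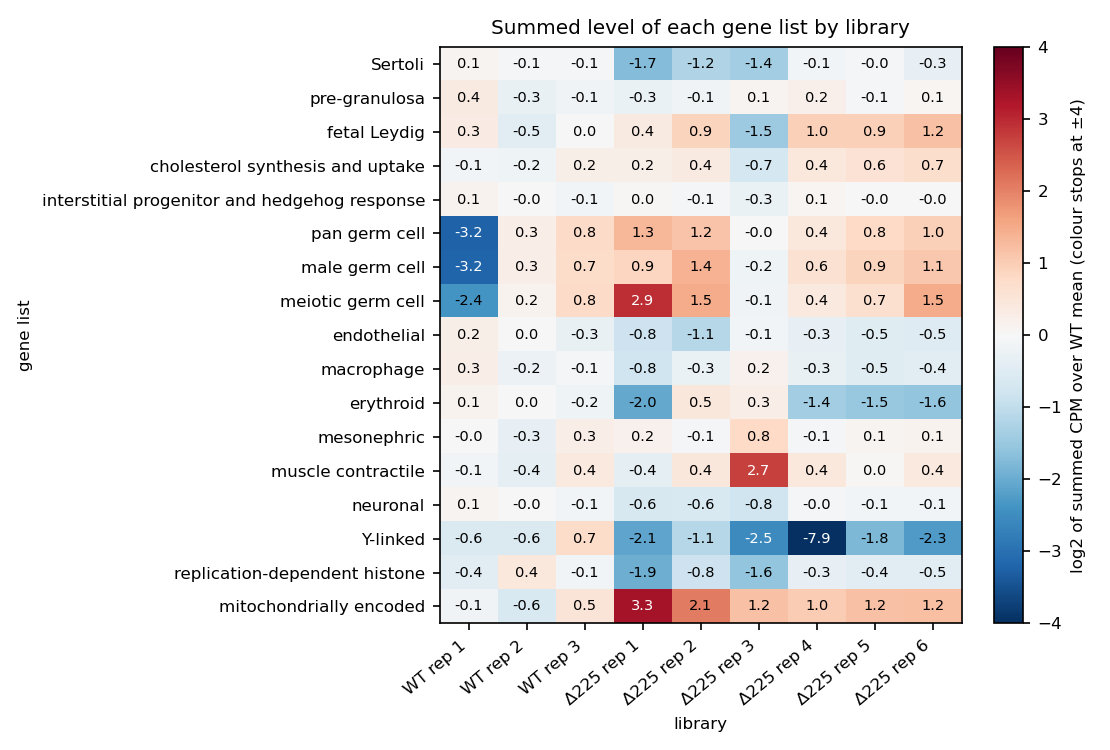
Summed CPM of 17 gene lists in each of the 9 libraries, as log2 over the WT mean (rows are lists, columns are libraries). Sertoli genes are low in Δ225 replicates 1 to 3 and near WT in replicates 4 to 6, and muscle genes are high in replicate 3, at 1840 CPM against 211 to 381 in the other Δ225 libraries.

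The 13 pre-granulosa genes, which mark the ovarian counterpart of Sertoli cells, gave no call in any of the 4 comparisons. Of the 13, 8 had positive differences over all 6, with a median of 0.09. Foxl2, the transcription factor that maintains granulosa fate, was at 0.829, 0.777 and 0.633 CPM in WT and at 4.78, 1.04, 0.339, 7.20, 1.27 and 4.13 in Δ225 replicates 1 to 6. Replicate 3 lay below WT and the other 5 above it, at levels that varied widely (edgeR adjusted p = 0.291). Side by side with the other deletions, which share the WT libraries, the mean Foxl2 level was 3.12 ± 2.68 CPM in Δ225 (SD, n = 6), 97.0 ± 44.5 in Δ93 (n = 6), 55.7 ± 26.3 in Δ306 (n = 3) and 32.9 ± 33.7 in Δ104 (n = 4). Mean Fgf9 was 7.01 ± 4.73, 3.08 ± 0.863, 2.48 ± 0.406 and 4.85 ± 1.76 CPM in the same order. The Δ225 mean of Fgf9 includes replicate 3 at 16.5 CPM, and the medians were 5.43, 2.85, 2.33 and 4.84 CPM. Wnt4 was at 30.0 to 70.9 CPM in WT and 23.6 to 64.7 in Δ225, a difference of 0.03. Fst, the activin antagonist follistatin, was at 1.01 to 1.69 CPM in WT and above that in every Δ225 library, from 2.17 to 14.6, with the highest value in replicate 3 (1.89, SE 0.96, adjusted p = 0.332).

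Fetal Leydig cell genes and cholesterol synthesis genes were higher in replicates 4 to 6 by value, without a call. Fetal Leydig cells make androgens from cholesterol. Of 14 Leydig genes, all 14 had positive differences in replicates 4 to 6 and in 13 the groups did not overlap, where 12.9% of all genes did so in that direction. The median was 0.93 against 0.00 over all genes. Star, the carrier of cholesterol into mitochondria, was at 253, 165 and 209 CPM in WT and 370, 390 and 476 in replicates 4 to 6. All 3 lay above WT. The difference was 0.98 (SE 0.69, edgeR adjusted p = 0.833). Cyp17a1, which converts progestins to androgens, was at 501, 287 and 461 CPM in WT, at 1023, 1126 and 157 in replicates 1 to 3, and at 897, 978 and 1140 in replicates 4 to 6. Replicate 3 was again the low library, and its summed level of the list was 706.5 CPM against 1421 to 2441 in WT and 2483 to 4390 in the other 5 Δ225 libraries. Insl3, the Leydig hormone that drives testis descent, was at 6.28, 6.39 and 4.09 CPM in WT, at 0.195, 1.91 and 0.0967 in replicates 1 to 3, and at 12.6, 16.1 and 18.6 in replicates 4 to 6. The 3 groups did not overlap, and between the 2 sets the log2 difference was 4.32 (SE 1.36, edgeR adjusted p = 0.0292), which was not called without Δ225 replicate 1, 3, 5 or 6 (adjusted p = 0.0513 to 0.116).

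All 15 genes of cholesterol synthesis and uptake had positive differences in replicates 4 to 6, with a median of 0.68 against 0.00 over all genes. For 12 of them the groups did not overlap, where 12.9% of all genes did so in that direction. Hmgcs1, an early enzyme of the pathway, was at 226, 208 and 282 CPM in WT and 341, 366 and 438 in replicates 4 to 6, above every WT library. Its difference there was 0.68, not called. Sc5d, a late enzyme, rose in replicates 1 to 3 (0.85, edgeR adjusted p = 0.0178), in which replicate 3 at 26.9 CPM lay within the WT range of 20.9 to 30.1. Its difference over all 6 was 0.87 (adjusted p = 0.0897). Srebf2, a transcription factor that activates the pathway, fell in replicates 1 to 3 by 0.72, and its difference was 0.17 with GC and length in the fit. Without replicates 1 and 3, all 15 differences were positive over the other 4 Δ225 libraries and 1 was called. In that fit 150 of 22622 genes were called, 67 of them higher.

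Interstitial progenitor and hedgehog response genes gave no call over all 6. Ptch1, the hedgehog receptor and a target of that pathway, was at 327, 316 and 279 CPM in WT and 249 to 306 in Δ225, and Pdgfra, a marker of steroidogenic progenitors, at 456 to 552 against 453 to 517. For both genes the groups overlapped. Of 9 retinoic acid genes none was called over all 6; Cyp26b1, which degrades retinoic acid and keeps male germ cells from meiosis, was at 266 to 342 CPM in WT and 162 to 279.6 in Δ225 (-0.59, SE 0.80).

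Germ cell genes varied widely between libraries of the same genotype. Pan germ cell genes summed to 62.07 CPM in WT replicate 1, 707.2 and 999.9 in the other 2 WT libraries, and 585.5 to 1476 in Δ225. All 12 meiotic genes had positive differences over all 6 replicates, with a median of 1.27, but none was called. Without WT replicate 1, the 12 remained positive, with a median of 0.86. Stra8, the gatekeeper of meiosis, was at 0, 0.777 and 0.132 CPM in WT and at 9.27, 3.86, 0, 0.927, 0.281 and 8.98 in Δ225 replicates 1 to 6. The groups overlapped, with 3 Δ225 libraries above 3 CPM and 1 at 0 (edgeR adjusted p = 0.275). Sycp3, a component of the synaptonemal complex, was at 0.301, 1.44 and 2.22 CPM in WT and 1.74 to 13.1 in Δ225 (2.14, SE 1.02, adjusted p = 0.309). Sycp2, of the same complex, rose in replicates 1 to 3 (3.13, adjusted p = 0.0321), where it was at 55.3, 39.8 and 4.26 CPM against 0.703 to 6.38 in WT. That call was lost without replicate 1 (adjusted p = 0.133) and without replicate 2 (0.0533). The male germ cell gene Nanos2, which suppresses meiosis, was at 0, 0.427 and 0.554 CPM in WT and at 1.76, 8.42, 0, 1.21, 2.60 and 6.25 in Δ225. Of the 6 Δ225 libraries, 5 lay above WT. Piwil4, a PIWI protein of fetal male germ cells, rose in replicates 1 to 3 (3.23, adjusted p = 0.026), where replicate 2 was at 26.7 CPM against 2.44 and 1.40 in the other 2. Without replicate 2 the difference was 0.81 (adjusted p = 0.544).

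Endothelial genes were lower by value: all 11 had negative differences over all 6 replicates, with a median of -0.56, and none was called. Of the 11, 5 fell in replicates 1 to 3, where 13.3% of all genes did: Egfl7, Robo4, Sox17, Sox18 and Tie1, by 1.21 to 1.56. Sox17, a transcription factor of arterial endothelium, was at 23.7, 18.5 and 13.2 CPM in WT, 5.27, 5.73 and 8.66 in replicates 1 to 3, and 11.6, 11.1 and 7.79 in replicates 4 to 6, so that every Δ225 library was below WT. Among these, 10 differences in replicates 1 to 3 were negative and none was called with GC and length in the fit. Kdr, the main VEGF receptor, was at 88.0 to 156 CPM in WT and 63.5 to 150 in Δ225, with overlapping groups. Macrophage genes gave no call, with 10 of 10 negative differences over all 6 (median -0.33).

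Erythroid genes were lower by value in replicates 1, 4, 5 and 6 than in WT and in replicates 2 and 3. The summed level was 13840 to 17090 CPM in WT, 3767, 21500 and 18540 in Δ225 replicates 1 to 3, and 5973, 5411 and 5252 in replicates 4 to 6. In replicates 4 to 6, all 10 genes were negative and did not overlap WT, where 12.8% of all genes did so in that direction, and the median was -1.51. None was called. Hbb-y, the embryonic beta-like globin, was at 2504 to 3685 CPM in WT and 761, 767 and 539.8 in replicates 4 to 6 (-2.18, SE 0.90, edgeR adjusted p = 0.484). Replicate 1 lay below replicates 4 to 6, so the level did not follow the 2 sets. The part of erythroid RNA in the other differences was not tested.

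Transcripts of the mitochondrial genome were higher by value in every Δ225 library, and 6 of 15 rose over all 6 replicates. All 15 genes of the list, which encode respiratory chain subunits and the 2 mitochondrial ribosomal RNAs, had positive differences and did not overlap WT over all 6. Of all genes, 5.22% did not overlap in that direction. The 6 called, where 0.131% of all genes rose, were mt-Co1, mt-Co3, mt-Nd3, mt-Nd5, mt-Rnr1 and mt-Rnr2. With GC and length in the fit, mt-Co1, mt-Nd5 and mt-Rnr2 stayed called over all 6. The calls were lost there for mt-Co3 (0.69, edgeR adjusted p = 0.326), mt-Nd3 (0.99, adjusted p = 0.402) and mt-Rnr1 (1.03, adjusted p = 0.0821). mt-Rnr2, the large ribosomal RNA, was at 219, 167 and 268 CPM in WT, at 1382, 1051 and 543 in replicates 1 to 3, and at 664, 648 and 715 in replicates 4 to 6. No Δ225 library came near WT. The difference was 1.94 (SE 0.30, edgeR adjusted p = 0.00767). In replicates 4 to 6 mt-Co3, mt-Nd3 and mt-Rnr2 were called, where 0.0697% of all genes rose. In replicates 1 to 3 all 15 were called, where 10.6% of all genes rose. Without WT replicate 1, all 15 stayed positive over all 6 replicates but none was called. Other deletions, set against the same WT, had like levels: mt-Rnr2 was at 926 ± 300.0 CPM in Δ93 (SD, n = 6), 627 ± 145 in Δ306 (n = 3) and 767 ± 96.3 in Δ104 (n = 4), against 834 ± 319 in Δ225 (n = 6) and 218 ± 50.6 in WT (n = 3). Of 15 nuclear genes of the respiratory chain, none was called over all 6, with a median of -0.16, and 6 fell in replicates 1 to 3, where 13.3% of all genes did. They included Atp5a1, Atp5b, Ndufv1, Sdha and Uqcrc1, of which Atp5a1, a subunit of ATP synthase, turned to 0.10 with GC and length in the fit.

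Replication-dependent histone genes, whose messages normally lack a poly(A) tail, were lower by value in Δ225. Of 56 tested, 54 had negative differences over all 6, with a median of -0.82, and 17 did not overlap WT, where 4.9% of all genes did so in that direction. None was called over all 6 or in replicates 4 to 6. In replicates 1 to 3, 23 of the 56 fell, where 13.3% of all genes did. Hist1h2ah was at 12.96, 26.6 and 16.3 CPM in WT, at 0.878, 6.21 and 1.84 in replicates 1 to 3, and at 9.73, 8.44 and 8.20 in replicates 4 to 6. All 6 Δ225 libraries lay below WT. Many histone rows share near-identical copies, as the pseudogene rows do with their parents, so single rows are uncertain. Pseudogenes made up 105 of the 122 calls in replicates 4 to 6, 101 of them lower, with a median of -0.69 over 2539 rows, and in replicates 1 to 3 the same class had a median of 1.13 with 663 higher and 85 lower calls.

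The 2 sets of replicates gave unlike pictures. Replicates 1 to 3 against WT gave 5493 called genes, 2440 higher (10.6%) and 3053 lower (13.3%), or 23.9% in all. Before adjustment, p was below 0.05 in 37.1% of genes. Replicates 4 to 6 against WT gave 122 (0.532%), 16 higher (0.0697%) and 106 lower (0.462%), and before adjustment 8.21% had a p below 0.05. Groups without overlap made up 38.3% of genes in the first set (17.9% higher, 20.4% lower) and 25.7% in the second. Both sets were set against the same WT libraries. In replicates 1 to 3, protein-coding calls followed GC: 1057 rose and 8 fell in the lowest quintile, and 18 rose and 1590 fell in the highest. With GC and length in the fit, 1248 genes were called in place of 5493. Of the named increases of that set, several were high in replicate 3 only: Tceal7 was at 0.976, 1.30 and 53.5 CPM in replicates 1 to 3 and Scn3b, a sodium channel subunit, at 2.34, 1.22 and 24.96, against at most 0.659 and 0.818 in WT. Without replicate 3, Tceal7 was not called (1.39, adjusted p = 0.276). Tbx15, a T-box factor, was also high there. Aspn, an extracellular matrix proteoglycan, was at 0.913 to 1.43 CPM in WT and above that in all 6 Δ225 libraries, at 15.4, 5.77 and 5.76 in replicates 1 to 3 and 4.66, 4.80 and 5.91 in replicates 4 to 6. It rose by 2.88 in replicates 1 to 3 (edgeR adjusted p = 0.00496), and over all 6 the difference was 2.53 (adjusted p = 0.0829). Olfr77, an olfactory receptor, was at 18.8, 3.86 and 3.58 CPM in replicates 1 to 3 and at most 0.0583 in WT and replicates 4 to 6. Rspo4, Fbxo40, Rhox10, Tex16 and Epha10 were the other named increases.

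The named decreases of replicates 1 to 3, besides Peg13, were nearer to WT in replicates 4 to 6. Scand1, a SCAN domain protein, was at 16.8, 17.4 and 11.5 CPM in WT, 0.390, 3.78 and 0.871 in replicates 1 to 3, and 13.7, 15.4 and 13.96 in replicates 4 to 6. Nrtn, which encodes the neurotrophic factor neurturin, was at 7.02 to 11.97 CPM in WT, 0.195 to 1.82 in replicates 1 to 3 and 6.93 to 7.36 in replicates 4 to 6. Pnmt, Mrps34, Lbx2, Zfp771, Hist1h2ad, Hist1h2ah and Hist2h3c2 fell in replicates 1 to 3 as well, by 2.41 to 3.43.

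In replicates 4 to 6, 9 named genes rose and, besides Peg13, Tmsb10 fell. Dnm3os, the RNA that hosts the microRNAs miR-199a and miR-214, was at 8.54, 7.52 and 12.7 CPM in WT, 21.1, 20.4 and 24.3 in replicates 1 to 3, and 28.7, 37.5 and 36.1 in replicates 4 to 6. All 6 Δ225 libraries lay above WT. It rose by 1.83 (SE 0.34, edgeR adjusted p = 0.0142) in replicates 4 to 6 and by 1.19 in replicates 1 to 3, while over all 6 the difference of 1.55 just missed the threshold (adjusted p = 0.0562). Dnm3os lies antisense within Dnm3, and without strand in the counting the 2 cannot be told apart. Slc30a1, a zinc exporter, rose by 0.78 in replicates 4 to 6 and 0.55 in replicates 1 to 3, from 20.8 to 22.7 CPM in WT to 29.9 to 40.8. Tmsb10, an actin monomer-binding peptide, was at 646, 687 and 724 CPM in WT and 439.8, 394 and 429 in replicates 4 to 6, and fell by 0.70 (SE 0.15, adjusted p = 0.0286). It was at 551, 571 and 648 in replicates 1 to 3, of which replicate 3 lay within the WT range (-0.22, adjusted p = 0.292). Fbxo33, an F-box protein, rose by 0.58. The fit of protein-coding genes alone called 1 gene in replicates 4 to 6, so these calls depend on the genes tested together.

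**Figure D5:**
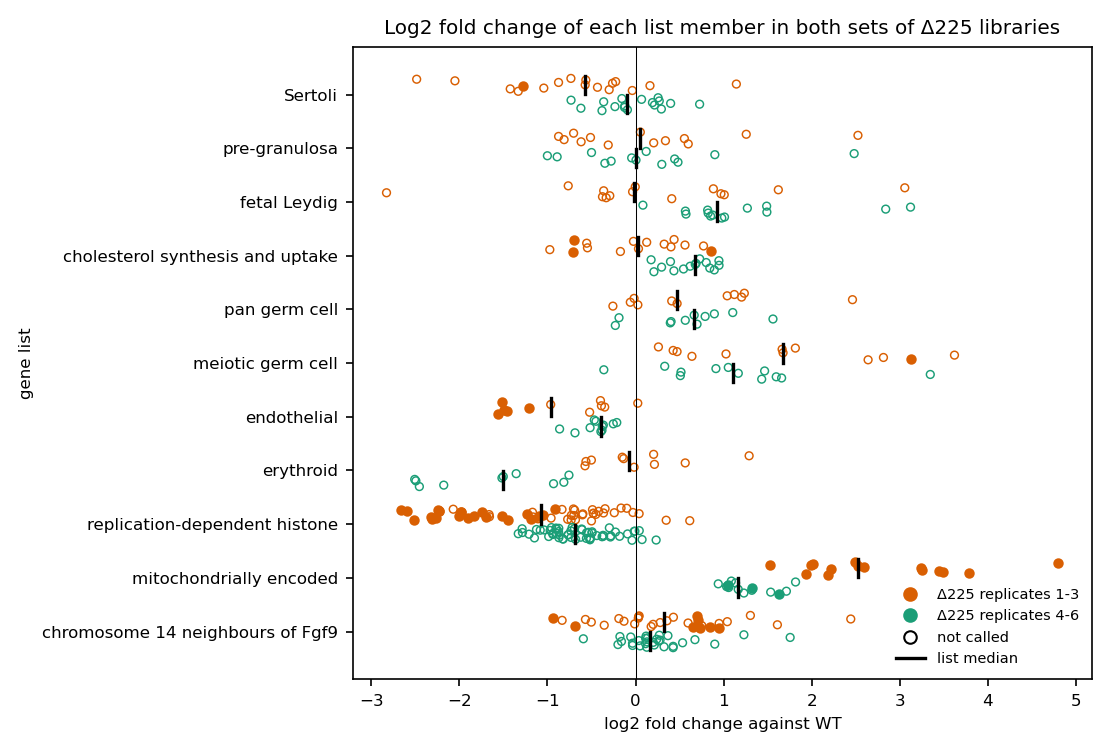
Log2 difference from WT of each tested member of the gene lists (x axis, log2 units) in Δ225 replicates 1 to 3 and 4 to 6, 1 point per gene, filled where called, with a bar at each list's median. Fetal Leydig genes have medians of -0.02 and 0.93 in the 2 sets, erythroid genes of -0.07 and -1.51.

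Between the 2 sets, 4944 genes were called, 2646 higher (11.5%) and 2298 lower (10%) in replicates 4 to 6, or 21.6% in all. The unadjusted p was below 0.05 in 35.3%, and groups did not overlap in 42.5% of genes (23.1% higher, 19.4% lower). Genes that rose in that direction included 3 Leydig genes (Ass1, Insl3 and Scarb1), 7 cholesterol genes (among them Dhcr7, Fdps, Mvd, Sqle and Srebf2) and Inhbb, whose sign turned with GC and length in the fit (-0.05). Fdps, the farnesyl diphosphate synthase, was at 96.8, 182 and 63.5 CPM in replicates 1 to 3 and 252, 289.5 and 338 in replicates 4 to 6, a difference of 1.36 (edgeR adjusted p = 0.0106). Adnp, a chromatin regulator, was at 1.27 to 2.99 CPM in replicates 1 to 3 and had a median of 15.5 in replicates 4 to 6, with WT between them at 4.19 to 10.3. The named decreases included Chrng, Csrp3, Klhl40, Tnnt3, Neb, Myo18b and Tmod1, genes of skeletal muscle that were high in replicate 3: Neb, the giant protein nebulin, was at 8.59, 10.6 and 93.2 CPM in replicates 1 to 3 and 2.01 to 4.44 in replicates 4 to 6. Bc1, a neuronal small RNA, was at 1.39 to 1.71 CPM in replicates 4 to 6, against 8.59 to 28.3 in replicates 1 to 3 and 10.2 to 29.4 in WT. With replicates 1 and 3 left out, no gene was called between the sets (unadjusted p below 0.05 in 4350), a fit in which replicate 2 stands alone and is assumed to vary like the other groups.

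Some of the genes called in Δ225 had the following levels in the other deletions, which share the WT libraries. Mean Mob1b was 51.2 ± 11.3 CPM in Δ225 (SD, n = 6), 48.2 ± 4.72 in Δ93 (n = 6), 38.5 ± 4.49 in Δ306 (n = 3) and 51.8 ± 7.94 in Δ104 (n = 4), against 24.7 ± 1.81 in WT (n = 3). Mean Slc5a3 was 44.6 ± 6.27 CPM in Δ225, 22.3 ± 2.04 in Δ306, 39.0 ± 5.6 in Δ104 and 27.2 ± 3.68 in Δ93, against 23.0 ± 3.99 in WT. Mean Gadd45g was 17.6 ± 5.99 CPM in Δ225 and 22 ± 5.73 in Δ104, against 48.2 ± 3.56 in Δ306, 35.0 ± 9.98 in Δ93 and 44.2 ± 9.03 in WT. Gm5292, a processed pseudogene, had the largest called increase over all 6, 4.56 (SE 0.61, edgeR adjusted p = 0.00129). Its mean was 0.0282 ± 0.0292 CPM in WT and 0.113 ± 0.0666 in Δ306. It was 0.775 ± 0.252 CPM in Δ225, 1.68 ± 0.597 in Δ104 and 1.57 ± 0.343 in Δ93. The differences between deletions were not tested. The labels do not say whether WT and Δ225 libraries were prepared together, so a batch and the deletion cannot be told apart.

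In the authors' deposited table of the same comparison, 781 of 57186 rows had an adjusted p below 0.05, 594 higher and 187 lower in Δ225. That table gives log2 differences, turned to Δ225 over WT, of 1.08 for Mob1b and -7.16 for Peg13. The authors' deposited table calls Dnm3os (1.57, adjusted p = 0.000351) and Piwil4 (2.75, adjusted p = 0.0306), which the edgeR test over all 6 did not (adjusted p = 0.0562 and 0.209). For Fgf9 the authors' deposited table gives -0.42 with an adjusted p of 0.535.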

How the data were processed

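RNA came from microdissected gonads without the mesonephros and was sequenced as poly(A)-selected, directional libraries, per the labels' protocols. Reads were aligned with STAR to mm10, and the authors deposited raw counts per gene, per the submitters' processing notes; featureCounts and STAR 2.7.10a are named there for WT only, and counting strand and annotation are not given in the sources used here. The authors also deposited DESeq2 log2 fold changes and p-values for this contrast.

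Differences were tested with edgeR 4.0.16 (R 4.3.3): filterByExpr, TMM, quasi-likelihood test and Benjamini-Hochberg adjustment over 22941 genes, on all 22 libraries of WT and the 4 Fgf9 deletions, with the 6 Δ225 libraries together or split into 2 sets of 3. Names came from GENCODE M21 for 51929 rows and from the deposited comparisons for 4772, while 485 kept their identifier. On data simulated for Δ225 against WT (22113 genes), the test recovered 53% of 2-fold and 83% of 4-fold changes, with 5 false calls of 141. The simulation took its spread with the 2 sets apart and changed only genes with a mean of at least 1 CPM. It held no difference between the sets and no GC difference, so it cannot give the rates for the real comparison over all 6. Intervals and floors cover counting error only. The members and gene lists were chosen with earlier results of these data known. Genes were named by rule: Fgf9, up to 10 called increases and decreases per comparison with a mean of at least 1 CPM and groups that do not overlap (predicted genes, pseudogenes and mitochondrial rows left out), called list members, and the 3 most abundant members of other lists. Gm33321, Gm5292, Scd1, Dpysl2 and Tmem168 over all 6 replicates, and uncalled list members beyond those 3, were chosen after their values were seen. A few named members of the lists are not reported here.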

Additional observations from a re-analysis of the deposited data

Results flagged for a closer look

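In 8 of 33 measures examined over the 6 Δ225 libraries, 1 library stood apart from the other 5 by Dixon's criterion, which chance meets in about 1 in 20 groups. Replicate 1 stood apart in its share of mitochondrial counts, 11.6% against 2.56 to 5.47% in the other 5. It also stood apart in the summed level of mitochondrially encoded genes (131200 CPM), of meiotic genes (638 CPM) and of the chromosome 14 genes around Fgf9 (1943 CPM). Replicate 3 stood apart in the summed level of muscle genes (1840 CPM), mesonephric genes (86.14 CPM) and imprinted genes (13310 CPM), and in Fgf9 itself (16.49 CPM).

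The effects of the 2 sets of Δ225 replicates differed in the test of the difference itself for 4944 genes. Of the named ones, those higher in replicates 4 to 6 were Insl3 (4.32), Scand1 (3.02), Adnp (2.88), Lbx2 (2.81), Nrtn (2.71), Zfp771 (2.61), Fbxl15 (2.58), Mrps34 (2.42), Kcng2 (2.36) and Prr7 (2.20), as log2 differences from replicates 1 to 3. Those lower were Olfr77 (-9.55), Tceal7 (-6.50), Chrng (-5.88), Csrp3 (-5.36), Klhl40 (-4.73), Tnnt3 (-4.39), Neb (-3.60), Bc1 (-3.54), Myo18b (-3.02) and Tmod1 (-2.85).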

How the results depend on the processing

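Over all 6 Δ225 replicates, the 48 calls became 818 with DESeq2, 27 without mitochondrial rows, 9 at an adjusted p of 0.01, 150 without replicates 1 and 3, and 11 with protein-coding nuclear genes only. Only 1 call was left with the 9 libraries alone (2367 at unadjusted p below 0.05) and 1 with those 9 thinned to the smallest total and fitted alone (2020). With GC and length in the fit, 52 genes were called, 10 higher and 42 lower, against 30 and 18. Leaving out 1 library gave 5 (without WT replicate 2) to 122 calls (without Δ225 replicate 1), with 98 without Δ225 replicate 3, 14 and 12 without WT replicates 1 and 3, and 30 without Δ225 replicate 2. For replicates 1 to 3, 5493 calls became 1970 at an adjusted p of 0.01, 1248 with GC and length in the fit, and 805 without replicates 1 and 3, and leaving out 1 library gave 2430 (without Δ225 replicate 1) to 6170. For replicates 4 to 6, 122 calls became 466 with DESeq2, 187 without the filter, 339 with the 9 libraries alone, 256 with those 9 also thinned, 34 at 0.01, 1 with protein-coding genes only, 189 with GC and length in the fit, 243 without replicates 1 and 3, and 19 (without Δ225 replicate 5) to 252 (without Δ225 replicate 1) without 1 library; it was 24, 25, 36 and 46 without Δ225 replicate 4 or 6 or WT replicate 2 or 3. Between the sets, 4944 calls became 4050 with the 9 libraries alone, 3012 with those 9 also thinned, 1481 at 0.01, 3275 with protein-coding genes only, 1778 with GC and length in the fit, 0 by edgeR without replicates 1 and 3 (4350 at unadjusted p below 0.05; DESeq2, run with all replicates, called 5885), and 2191 (without Δ225 replicate 1) to 5928 without 1 library, with 2889 without Δ225 replicate 4, 3207 without 5 and 3267 without 6. The difference for Fgf9 was never called, and ran from -0.889 to -0.298 without 1 library.

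With GC and length in the fit, the sign turned in replicates 1 to 3 for Col4a2 (0.058), Srebf2 (0.172), Zdhhc20 (-0.099), Fgfr1 (0.011), H13 (0.152), Osbpl5 (0.008), Peg12 (0.067), Atp5a1 (0.099), Rpl29 (0.029) and Rpl39 (-0.083). It turned between the sets for Sox18 (-0.054), Fgfrl1 (-0.090), Peg12 (-0.12), mt-Co2 (0.13), mt-Nd3 (1.29), Atp5a1 (-0.043), Rpl23a (0.24) and Inhbb (-0.052). Without replicates 1 and 3 it turned for Cdkn1c in the first set (-0.075) and between the sets (0.095), and for Cdh16 between them (0.96). Without replicate 3 it turned for Acta1 in the first set and for Cdh16 between the sets, whose values without 1 library ran from -0.608 to 5.726 and from -5.282 to 0.622. The cause was not tested.

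Replicate numbers shared by Δ225 and WT did not pair the libraries: the correlations of same-numbered libraries were -0.19, 0.066 and -0.116. With the replicate number as a block, 1638 genes were called over all 6, Fgf9 was at -0.46 (adjusted p = 0.44), and 0 by edgeR in replicates 1 to 3 (4521 at unadjusted p below 0.05; DESeq2 without the block called 6595). No paired analysis was possible for replicates 4 to 6 because they share no number with WT or with replicates 1 to 3. Genes under a few counts in the smallest library, such as Gm33321, are limited by depth, and 3 WT libraries limit every comparison. RLE scaling, no scaling and no filter left the count over all 6 within 1.5 times.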

Other observations

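Gene lists not described above behaved as follows. Of 16 cell cycle genes, none was called over all 6 Δ225 replicates or in replicates 4 to 6, and Aurkb, Mcm2, Mcm3, Mcm5 and Mcm7 fell in replicates 1 to 3, where 13.3% of all genes did. Mcm2, a subunit of the replicative helicase, was at 192 to 372 CPM in WT, 109, 149 and 205 in replicates 1 to 3, and 279, 295 and 244 in replicates 4 to 6. Of these 5 calls, 1 remained with GC and length in the fit and 0 without replicates 1 and 3. Mki67, a proliferation marker, fell between the sets (-1.16), with 577 to 1250 CPM in replicates 1 to 3 and 388 to 436 in replicates 4 to 6.

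Among 14 immediate early genes, Dusp1, Ier2, Junb and Nr4a1 fell in replicates 1 to 3, where 23.9% of all genes were called and 13.3% fell, and none was called over all 6. Nr4a1, an orphan nuclear receptor, was at 41.6, 38.6 and 36.7 CPM in WT, 15.3, 21.1 and 17.2 in replicates 1 to 3, and 38.7, 37.6 and 37.3 in replicates 4 to 6. In the basement membrane list, 3 of 11 genes tested (Col4a1, Col4a2 and Lamb2) fell in replicates 1 to 3, where 13.3% of all genes did. The sign for Col4a2 turned there with GC and length in the fit. Over all 6, 10 of the 11 had negative differences and none was called. Ribosomal protein genes had a median difference of 0.02 over 79 tested, with no call over all 6. The neuronal, mesonephric and muscle lists gave no call over all 6 or in replicates 4 to 6, with medians over all 6 of -0.31, -0.44 and 0.61.

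Against WT, imprinted genes other than Peg13 were called in replicates 1 to 3 alone. With Peg13, 13 of the 49 tested were called there, near the share of all genes (23.9%). Between the sets, 3 of the 49 were higher and 6 lower in replicates 4 to 6, where 11.5% and 10% of all genes were. Cdkn1c, Kcnq1ot1, Mcts2, Plagl1, Sfmbt2, Ube3a, Usp29 and Zdbf2 rose in replicates 1 to 3, and H13, Osbpl5, Peg12 and Trappc9 fell. Ube3a, a ubiquitin ligase, was at 59.2, 71.4 and 68.7 CPM in WT, 273, 118 and 138 in replicates 1 to 3, and 103.9, 94.0 and 92.6 in replicates 4 to 6, so all Δ225 libraries lay above WT (1.04, edgeR adjusted p = 0.0925). H19, a maternally expressed RNA, took 1 of 2 ranges: 9.21 to 11.6 CPM in WT replicate 2 and in Δ225 replicates 1, 5 and 6, and 1089 to 2242 CPM in the other 5 libraries.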
